A study of Mus musculus with 99 samples.

Results

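Quadriceps muscle of exercised mice was compared with quadriceps of sedentary mice, both at 18 months of age. The comparison held 21 of the 97 libraries in the count table, 12 exercised and 9 sedentary, chosen by the tissue, treatment and age given in the sample titles. All mice were wild-type C57BL/6 males, a common inbred laboratory strain, and carried no altered allele. Muscle came from mice perfused with saline and was frozen, and polyadenylated RNA was sequenced. The series also holds gastrocnemius and spinal cord, and sedentary mice of 10 months, which were not used here except for gastrocnemius at 18 months. What kind of exercise was done, for how long, and when tissue was taken after the last bout are not described in the labels. Nothing in the labels says that the libraries came from separate mice, so the p-values measure the spread between these libraries.

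Skeletal muscle is built of fibres that differ in the myosin heavy chain they use. Slow fibres carry the product of Myh7, and fast fibres carry those of Myh2 (type IIa), Myh1 (type IIx) or Myh4 (type IIb), in order from the most oxidative to the most glycolytic. Endurance training is known to raise the oxidative capacity of muscle and to move fast fibres from type IIb towards IIx and IIa, while loading and stretch act through proteins of the Z-disc and M-band, where thin and thick filaments are anchored.

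Exercised libraries held 31.75 to 46.54 M counts and sedentary libraries 29.06 to 44.51 M. The summed level of 10 myofibre markers was 108645 to 175915 CPM (counts scaled by library size and TMM factors) in exercised and 133127 to 175512 CPM in sedentary libraries. These markers show skeletal muscle and do not tell quadriceps from other leg muscles. The lowest chi-square per gene between a pair of libraries was 13.1 within the exercised group (66 pairs), 10.96 within the sedentary group (36 pairs) and 10.94 between the groups (108 pairs), so no pair of the 21 libraries agreed within sampling noise. Without the exercised and the sedentary library farthest from the mean of all 21 libraries, the count of called genes was 121. Of these, 94 were among the 123 genes called with all libraries. In such whole-tissue RNA, fewer cells of a type and less RNA per cell cannot be told apart.

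Exercise was accompanied by higher levels of myoglobin, of the type IIa and IIx myosins and of the sarcomere proteins Fhl1, Hspb7 and Myom3. Of 14543 genes tested, 98 rose (0.674%) and 25 fell (0.172%) at an adjusted p under 0.05 (edgeR quasi-likelihood test, Benjamini-Hochberg), 0.846% in all. At that share a short gene list would mostly hold no call, so lists without a call below are not read as unchanged. The changes were small: 12 rises and 1 fall reached a doubling or halving, most of them in genes of low level. The plot of fold change against p shows this spread. In 54 of the 98 rises all 12 exercised libraries lay above the sedentary median, which held for 1.19% of all genes tested. In 18 of the 25 falls all 12 lay below the sedentary median, against 1.08% of all genes. Only 3 genes of the 14543 (0.0206%) had all 12 exercised libraries above every sedentary one, namely Myh2, Rab15 and Myl12a, and only Ocrl (0.00688%) had all 12 below.

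**Figure D1:**
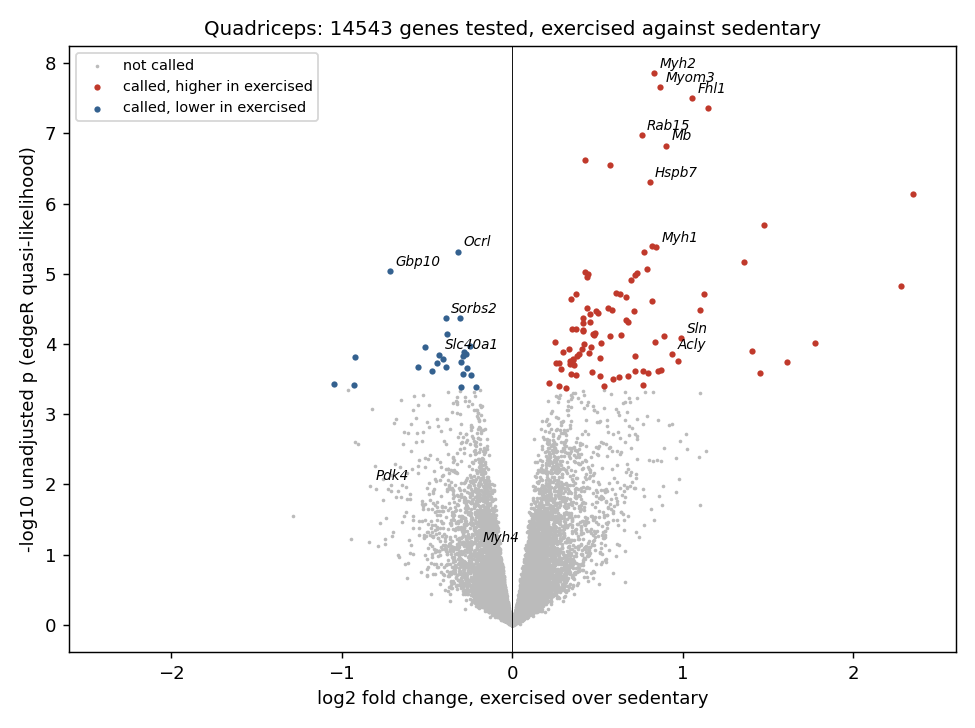
Each point is 1 of 14543 genes, with the log2 fold change of exercised over sedentary quadriceps across and the unadjusted edgeR p on a -log10 scale upwards. Red points are the 98 called rises, blue points the 25 called falls and grey points the genes not called. Myh2, Myom3 and Fhl1 stand at the top, while Myh4 and Pdk4 lie among the grey points.

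The 3 fast adult myosin genes lie side by side on chromosome 11 (GRCm38, GENCODE M21, plus strand): Myh2 at 67171027 to 67197517, Myh1 at 67200052 to 67224575 and Myh4 at 67238029 to 67260446. The gaps between them are 2534 bases (Myh2 to Myh1) and 13453 bases (Myh1 to Myh4). Their promoter windows, 250 bases before to 50 bases after the start site on the plus strand (RefSeq, GRCm38.p6), are shown because Myh2 and Myh1 were called and the adjacent Myh4 was not; the difference between these genes was not tested. They lie at chr11:67170777-67171076 for Myh2, chr11:67199852-67200151 for Myh1 and chr11:67237562-67237861 for Myh4. Capitals mark TATAAA and the E-box CAGCTG on either strand; these letters do not overlap each other.
Myh2: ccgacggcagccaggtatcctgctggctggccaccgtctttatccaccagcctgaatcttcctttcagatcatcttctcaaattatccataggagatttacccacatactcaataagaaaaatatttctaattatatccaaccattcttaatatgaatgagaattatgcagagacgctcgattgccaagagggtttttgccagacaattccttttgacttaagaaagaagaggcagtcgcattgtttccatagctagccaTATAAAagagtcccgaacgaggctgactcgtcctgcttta
Myh1: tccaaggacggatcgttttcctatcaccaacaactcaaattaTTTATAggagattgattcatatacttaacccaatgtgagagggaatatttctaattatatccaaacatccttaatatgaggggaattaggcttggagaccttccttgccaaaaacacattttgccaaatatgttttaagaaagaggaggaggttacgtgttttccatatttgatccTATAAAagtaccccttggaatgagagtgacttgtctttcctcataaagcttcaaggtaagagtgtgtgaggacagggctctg
Myh4: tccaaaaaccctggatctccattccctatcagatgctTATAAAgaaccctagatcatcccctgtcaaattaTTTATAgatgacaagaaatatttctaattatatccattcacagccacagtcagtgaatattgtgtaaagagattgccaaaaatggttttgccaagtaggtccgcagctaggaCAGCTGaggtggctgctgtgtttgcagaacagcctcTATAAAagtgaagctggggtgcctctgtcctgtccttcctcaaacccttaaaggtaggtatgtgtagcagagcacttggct

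All 3 windows hold TATAAA close to the RefSeq start, 32 bases before it in Myh1, 31 before it in Myh4 and 10 after it in Myh2. For Myh1 and Myh4 the RefSeq start differs from the GENCODE start given above, so these distances hold for the RefSeq start only. The Myh4 window alone of the 3 holds CAGCTG. Over all tested genes with a promoter in the table (11368), 9.38% held TATAAA and 18.8% held CAGCTG on either strand. Of the 79 called rises with a promoter, 9 held TATAAA (11.4%) and 20 held CAGCTG (25.3%), and of the 20 called falls, 3 and 4 did. These are counts of letters in a window and were not tested.

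Myh2 was the myosin that separated the groups completely. Its level ran from 2346 through a median of 3825 to 5094 CPM in exercised libraries, against 1759, 2099 and 2231 CPM in sedentary libraries. Every exercised library was above every sedentary one. The mean of 3674 ± 736 CPM against 2064 ± 143 CPM (SD, n = 12 and 9) gave a log2 fold change of 0.83 (SE 0.10, edgeR adjusted p = 0.000153).

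Myh1 ran from 4347 through 9202 to 13350 CPM in exercised libraries, against 4198, 5142 and 5668 CPM in sedentary libraries. In 10 of 12 exercised libraries it was above all sedentary ones, and libraries 5.4 and 9.1 lay within the sedentary range. Its log2 fold change was 0.85 (SE 0.15, edgeR adjusted p = 0.00467).

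Myh4 and Myh7 were not called. Myh4 spanned 28580 to 59500 CPM (median 45350) in exercised and 45320 to 58950 CPM (median 52770) in sedentary libraries, with a log2 fold change of -0.21 (SE 0.11, edgeR adjusted p = 0.43). Myh7 spanned 89.0 to 188.3 CPM in exercised and 63.7 to 172.7 CPM in sedentary libraries, with a log2 fold change of 0.19 (SE 0.16, edgeR adjusted p = 0.65). The groups overlapped for both genes.

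Per length, the order of the levels was the same in both groups. In the deposited TPM values Myh4 averaged 15849 ± 3123 in exercised and 19382 ± 2620 in sedentary quadriceps (SD, n = 12 and 9). Myh1 followed at 3150 ± 790 TPM in exercised against 1865 ± 191 TPM in sedentary libraries, and Myh2 at 1268 ± 252 TPM in exercised against 752.2 ± 76.7 TPM in sedentary libraries. Myh7 was far lower, at 45.8 ± 10.6 TPM in exercised and 43.3 ± 14.5 TPM in sedentary libraries.

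As shares of the summed TPM of these 4 genes, the groups differed for Myh4, Myh1 and Myh2. The Myh4 share was 77.5% ± 5.93 in exercised and 87.8% ± 1.097 in sedentary libraries (exact permutation test, two-sided, p = 0.000177, adjusted over 4 shares p = 0.000354). It ran from 67.7% to 89.0% in exercised and from 86.1% to 90.1% in sedentary libraries, and 11 of 12 exercised libraries were below all sedentary ones. The Myh1 share was 15.9% ± 4.59 in exercised and 8.54% ± 1.05 in sedentary libraries (exact permutation p = 0.000391, adjusted p = 0.000521). The Myh2 share was 6.37% ± 1.62 in exercised and 3.43% ± 0.181 in sedentary libraries (exact permutation p = 5.1e-05, adjusted p = 0.000204), with all 12 exercised libraries above all sedentary ones. The Myh7 share was 0.231% in exercised and 0.196% in sedentary libraries (exact permutation p = 0.238). The 4 shares are parts of 1 whole, so higher Myh1 and Myh2 shares by themselves lower the Myh4 share. Their tests are thus not separate, and the lower Myh4 share does not show that the Myh4 level fell. These shares were computed after the gene results were known and rest on the same libraries. Of the 50-base words of their transcripts, 22.9% (Myh2), 25.4% (Myh1) and 18.9% (Myh4) also occur in other genes, so the counting may have moved reads between the myosins.

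**Figure D2:**
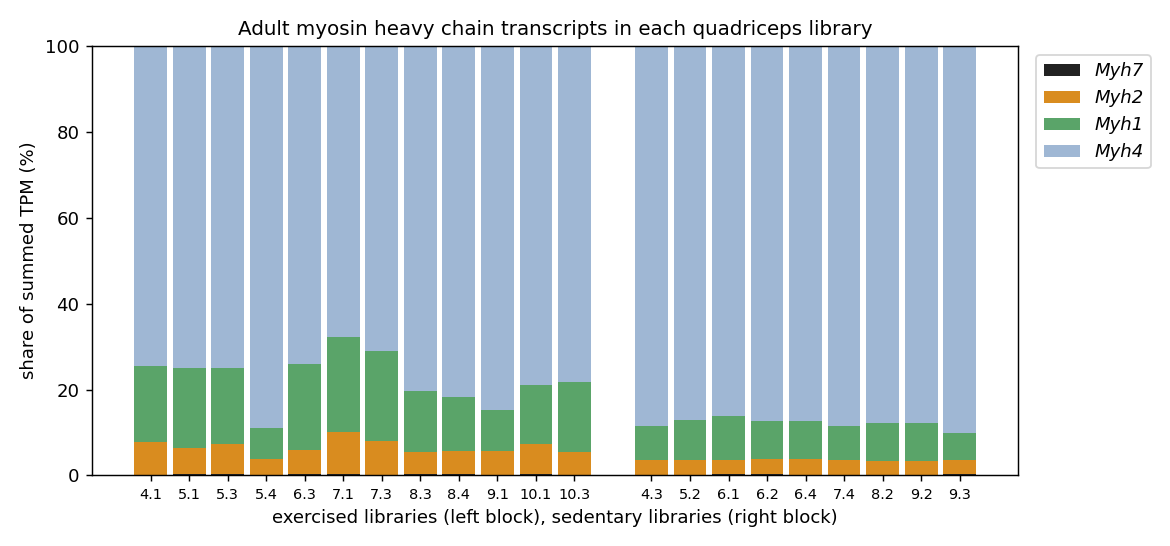
Bars give, for each library, the share of Myh7, Myh2, Myh1 and Myh4 in their summed TPM, in percent, with the 12 exercised libraries in the left block and the 9 sedentary libraries in the right block. The Myh4 part (light blue) is 67.7% to 89.0% in exercised and 86.1% to 90.1% in sedentary libraries, and exercised library 5.4 has the highest of its group.

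Beyond the myosins, the called members of the slow and fast fibre lists were Myoz2 and Casq2. All 12 tested genes of a list of slow fibre contractile genes had a positive fold change. Their median was 0.19 on the log2 scale, against -0.0002 over all genes tested. Of the 12, 2 rose (16.7%), against 0.846% of all genes tested called in either direction. Myoz2, a Z-disc protein of slow fibres, averaged 104.9 ± 22.4 CPM in exercised and 71.2 ± 12.2 CPM in sedentary libraries (log2 fold change 0.56, SE 0.11, edgeR adjusted p = 0.0130). Casq2, the calcium-binding protein of slow and cardiac reticulum, averaged 46.1 ± 8.35 CPM in exercised and 32.5 ± 5.33 CPM in sedentary libraries (log2 fold change 0.50, SE 0.10, edgeR adjusted p = 0.0134). Of 15 fast fibre contractile genes, Myh2 and Myh1 rose (13.3%) and none fell, while 11 of the 15 had negative fold changes (median -0.05). Mybpc1, the slow form of myosin-binding protein C, also rose, to 1777 ± 255 CPM in exercised against 1404 ± 72.3 CPM in sedentary libraries (log2 fold change 0.34, edgeR adjusted p = 0.0296). It is no member of those lists and was chosen after its value was seen. Its call was lost without exercised 6.3 or 7.3 or sedentary 4.3, 6.4, 7.4, 9.2 or 9.3 (adjusted p up to 0.0678).

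Genes of the Z-disc, the M-band and their chaperones were among the largest rises. Of 21 stretch-linked sarcomere genes 4 rose and none fell, with a list median of 0.15 on the log2 scale and 16 positive fold changes. Fhl1, a LIM-domain protein of striated muscle (chromosome X, 56731787 to 56793346, plus strand), was the largest of the 15 rises named for size, which had a mean log2 CPM of at least 1. It ran from 797.8 through a median of 1336 to 1884 CPM in exercised libraries, against 562.1, 644.7 and 854.6 CPM in sedentary libraries. In 11 of 12 exercised libraries it was above all sedentary ones; the exception was library 8.3. The log2 fold change was 1.05 (SE 0.13, edgeR adjusted p = 0.000153).

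Hspb7, a small heat shock protein of the sarcomere, had 275.9 to 592.1 CPM (median 415.0) in exercised and 188.7 to 293.7 CPM (median 243.6) in sedentary libraries, with 11 of 12 exercised libraries above all sedentary ones (log2 fold change 0.81, edgeR adjusted p = 0.000801). Cryab, another small heat shock protein, averaged 886.9 ± 134.1 CPM in exercised and 665.4 ± 72.2 CPM in sedentary libraries (log2 fold change 0.41, edgeR adjusted p = 0.0187). Actn2, the alpha-actinin that crosslinks thin filaments at the Z-disc, averaged 1331 ± 299 CPM in exercised and 896.2 ± 152.6 CPM in sedentary libraries (log2 fold change 0.57, edgeR adjusted p = 0.0193). Its call was lost without sedentary library 6.2 (adjusted p = 0.0507).

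Myom3, a myomesin of the M-band (chromosome 4, 135759715 to 135815564, plus strand), ran from 70.0 through 110.6 to 146.5 CPM in exercised libraries, against 50.9, 57.7 and 78.5 CPM in sedentary libraries. Only exercised library 8.3 fell within the sedentary range. The log2 fold change was 0.87 (SE 0.11, edgeR adjusted p = 0.000153). Csrp3, a Z-disc LIM protein, and Ankrd2, a titin-bound ankyrin protein, had log2 fold changes of 0.76 and 0.53 and were not called (edgeR adjusted p = 0.0844 and 0.112); both were singled out after their values were seen.

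**Figure D3:**
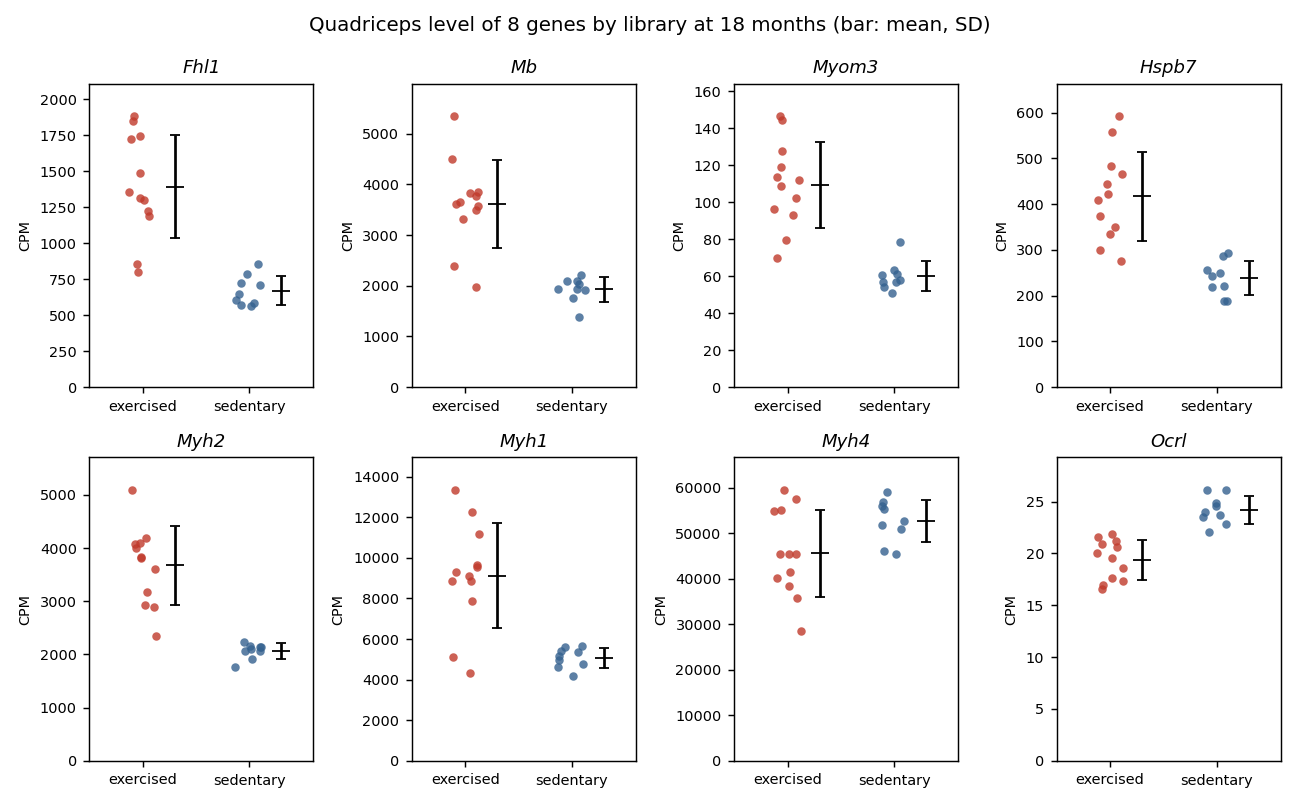
Points are libraries (red, 12 exercised; blue, 9 sedentary), and the vertical axes give the CPM of Fhl1, Mb, Myom3, Hspb7, Myh2, Myh1, Myh4 and Ocrl from 0. Bars are the mean and SD. Myh2 and Ocrl show no overlap between the groups, while Myh4 spans 28580 to 59500 CPM in exercised and 45320 to 58950 CPM in sedentary libraries.

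Sarcolipin (Sln), which inhibits the calcium pump of the sarcoplasmic reticulum, was the only called gene among 20 of excitation-contraction coupling and calcium handling. The share called was 5.0%, against 0.846% of all genes tested, and the list median was -0.04. Sln ran from 4.98 through 11.9 to 16.9 CPM in exercised libraries, against 3.15, 5.16 and 11.2 CPM in sedentary libraries. The ranges overlapped, and 7 of 12 exercised libraries were above all sedentary ones (log2 fold change 0.99, SE 0.21, edgeR adjusted p = 0.0203). Phospholamban (Pln), a related inhibitor chosen after its value was seen, averaged 3.23 ± 0.631 CPM in exercised and 2.24 ± 0.315 CPM in sedentary libraries (log2 fold change 0.52, edgeR adjusted p = 0.0226), a call lost without sedentary library 6.2 (adjusted p = 0.0512).

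Myoglobin (Mb), the oxygen-binding protein of oxidative fibres, was among the clearest rises (chromosome 15, 77015487 to 77050670, minus strand). It ran from 1978 through 3633 to 5348 CPM in exercised libraries, against 1378, 1946 and 2204 CPM in sedentary libraries. In 11 of 12 exercised libraries it exceeded all sedentary ones, and library 5.4 did not. The log2 fold change was 0.90 (SE 0.13, edgeR adjusted p = 0.000361). The library kit does not mark strand, and 412 bases of Mb overlap the antisense gene Gm49540. Myh2 and Myh1 likewise overlap antisense transcripts over 237 and 515 bases, where reads of both strands cannot be told apart.

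Respiratory chain genes had small positive fold changes without single calls. All 37 nuclear genes of oxidative phosphorylation had a positive fold change, from 0.02 to 0.33 on the log2 scale (median 0.20), and none was called, whereas 49.9% of all genes tested had a positive one. Ndufb5, a subunit of complex I, averaged 296.3 ± 48.6 CPM in exercised and 236.1 ± 26.8 CPM in sedentary libraries (log2 fold change 0.33, edgeR adjusted p = 0.0739). All 13 mitochondrially encoded mRNAs also had positive fold changes (median 0.25) with none called, and their share of all counts was 15.3% ± 3.01 in exercised and 13.2% ± 2.44 in sedentary libraries (exact permutation p = 0.0953, adjusted over 19 library measures p = 0.604). Of 17 regulators of mitochondrial biogenesis none was called, and Ppargc1a, the coactivator that drives it, averaged 33.5 ± 2.22 CPM in exercised and 32.4 ± 2.44 CPM in sedentary libraries (log2 fold change 0.05, edgeR adjusted p = 0.74).

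The following enzymes and carriers outside those lists rose; they were singled out after their values were seen. Coq8a, needed to make coenzyme Q, had 813.2 to 1671 CPM in exercised and 824.2 to 993.5 CPM in sedentary libraries (log2 fold change 0.48, edgeR adjusted p = 0.0193). Exercised libraries 5.4 and 9.1 were the 2 that lay low. Nnt, a transhydrogenase of the inner membrane, had 43.4 to 72.4 CPM in exercised and 29.5 to 44.5 CPM in sedentary libraries (log2 fold change 0.43, edgeR adjusted p = 0.00685). Got2 and Slc25a13, a transaminase and an aspartate-glutamate carrier of the malate-aspartate shuttle, rose by 0.41 and 0.71 on the log2 scale (edgeR adjusted p = 0.0144 and 0.0130). Got2 had 371.5 to 685.9 CPM in exercised and 363.2 to 424.5 CPM in sedentary libraries. Slc25a13 was low, with 0.979 to 2.36 CPM in exercised and 0.588 to 1.38 CPM in sedentary libraries. Ldhb, the heart-type lactate dehydrogenase subunit, Bdh1, an enzyme of ketone body use, and Pdp1, which activates pyruvate dehydrogenase, rose by 0.45, 0.58 and 0.42 on the log2 scale (edgeR adjusted p = 0.0135, 0.0130 and 0.0187). Ckmt2, the mitochondrial creatine kinase of muscle, averaged 1725 ± 526.1 CPM in exercised and 1187 ± 130 CPM in sedentary libraries (edgeR adjusted p = 0.0478). Its call was lost in 15 of the 21 fits that left out 1 library (adjusted p up to 0.103) and held only without exercised 5.4, 7.1, 9.1 or Quad_10.3_Exercise_18m or sedentary 5.2 or 6.1.

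Of 16 genes of de novo lipogenesis 2 rose (12.5%), Acly and Dgat2, against 0.846% of all genes tested called in either direction. Of the 16, 13 had positive fold changes (median 0.33), against 49.9% of all genes tested. This list too was chosen with earlier results of these data known. Acly, which makes cytosolic acetyl-CoA from citrate, ran from 45.8 through 75.3 to 130.4 CPM in exercised libraries, against 16.5, 35.3 and 81.4 CPM in sedentary libraries. The groups overlapped, with 12 of 12 exercised libraries above the sedentary median and 5 above all sedentary ones (log2 fold change 0.94, SE 0.21, edgeR adjusted p = 0.0267). Its call was lost in 5 of the 21 fits that left out 1 library, those without sedentary 4.3, 6.1, 6.2, 6.4 or 7.4 (adjusted p up to 0.0637). The call of Dgat2, which makes triglyceride, was lost in 11 of the 21 fits (adjusted p up to 0.0850) and held without exercised 5.1, 5.4, 6.3, 8.3, 8.4 or 9.1 or sedentary 5.2, 6.4, 8.2 or 9.2.

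Further called genes of acetyl-CoA and lipid metabolism are given singly, since no list of them was tested. Slc25a1, which exports citrate from mitochondria, averaged 25.8 ± 5.79 CPM in exercised and 14.8 ± 6.23 CPM in sedentary libraries (log2 fold change 0.80, edgeR adjusted p = 0.0354). Its call was lost in 12 of the 21 fits that left out 1 library (adjusted p up to 0.0783) and held without exercised 5.4, 6.3, 8.4, 9.1 or Quad_10.3_Exercise_18m or sedentary 5.2, 8.2, 9.2 or 9.3. Mid1ip1, an activator of acetyl-CoA carboxylase, averaged 33.1 ± 9.51 CPM in exercised and 18.8 ± 2.68 CPM in sedentary libraries (log2 fold change 0.82, edgeR adjusted p = 0.00467). Acss2, the cytosolic acetyl-CoA synthetase, rose by 0.44 on the log2 scale (edgeR adjusted p = 0.0130), while Acss1, its mitochondrial counterpart, fell by 0.47 (edgeR adjusted p = 0.0347). Acss1 ran from 15.8 through 22.9 to 37.1 CPM in exercised libraries, against 22.4, 32.5 and 38.3 CPM in sedentary libraries. The Acss1 call was lost in 14 of the 21 fits (adjusted p up to 0.0813) and held without exercised 5.1, 5.4, 7.1, 8.4 or 9.1 or sedentary 5.2 or 7.4. Acss2, Acat2 (a cytosolic thiolase; 0.49, adjusted p = 0.0130) and Pgd (an NADPH-making enzyme; 0.34, adjusted p = 0.0359) were chosen after their values were seen. The Pgd call was lost in 15 of the 21 fits (adjusted p up to 0.0866) and held without exercised 5.4, 6.3, 9.1 or Quad_10.3_Exercise_18m or sedentary 8.2 or 9.3. None of 19 genes of cholesterol synthesis and uptake was called, and 17 had positive fold changes (median 0.09).

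In the lists of glucose and fatty acid use, only Gbe1 was called. Gbe1, the glycogen branching enzyme, was 1 of 22 genes of glycolysis and glycogen (4.55% called, against 0.846% of all genes tested). It averaged 92.2 ± 19.7 CPM in exercised and 65.9 ± 7.94 CPM in sedentary libraries (log2 fold change 0.48, edgeR adjusted p = 0.0193). Of the 22 genes 16 had negative fold changes (median -0.06). None of 26 genes of fatty acid uptake and oxidation and none of 19 of glucose uptake and insulin signalling was called, where 0.846% of all genes tested were. Pdk4, the kinase that turns off pyruvate dehydrogenase, ranged widely, with 121.3, 185.2 and 552.6 CPM (lowest, median, highest) in exercised and 134.0, 417.9 and 756.1 CPM in sedentary libraries (log2 fold change -0.84, SE 0.30, edgeR adjusted p = 0.20).

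**Figure D4:**
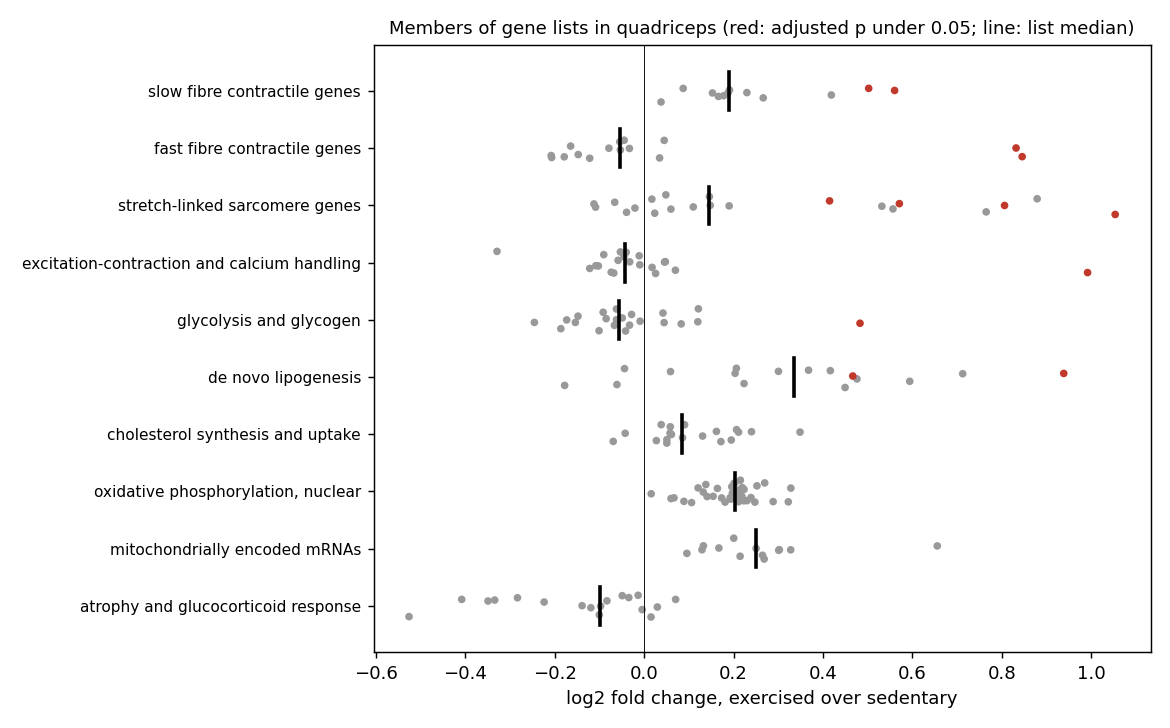
Each point is a member of a gene list, placed by its log2 fold change of exercised over sedentary quadriceps; red points have an edgeR adjusted p under 0.05 and vertical lines are list medians. All 37 nuclear genes of oxidative phosphorylation and all 12 slow fibre genes lie right of 0, and 15 of 18 atrophy and glucocorticoid genes lie left of it with none called.

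The largest falls were more modest than the rises. Ocrl, an inositol polyphosphate phosphatase of the endosomal system, ran from 16.5 through 19.8 to 21.9 CPM in exercised libraries, against 22.1, 24.0 and 26.1 CPM in sedentary libraries, with no overlap (log2 fold change -0.32, SE 0.06, edgeR adjusted p = 0.00469). Slc40a1, the iron exporter ferroportin, averaged 30.0 ± 5.85 CPM in exercised and 40.4 ± 4.89 CPM in sedentary libraries (log2 fold change -0.43, edgeR adjusted p = 0.0268). Its call was lost without exercised 7.3 or sedentary 4.3, 5.2, 7.4 or 9.2 (adjusted p up to 0.0649). Sorbs2, an adaptor protein of the Z-disc, averaged 77.1 ± 12.5 CPM in exercised and 101.1 ± 9.59 CPM in sedentary libraries (log2 fold change -0.39, edgeR adjusted p = 0.0144). Epg5, a tether of autophagosomes and lysosomes, fell by 0.31 on the log2 scale (edgeR adjusted p = 0.0144).

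Of the ankyrin-repeat SOCS-box proteins, which serve in ubiquitin ligases, Asb4 fell by 0.41 on the log2 scale, with 8.66 to 15.6 CPM in exercised and 12.1 to 18.6 CPM in sedentary libraries (edgeR adjusted p = 0.0286). The Asb4 call was lost without exercised 5.1 or 7.1 or sedentary 4.3, 6.1 or 6.2. Asb14 and Asb12, chosen after their values were seen, fell by 0.27 and 0.24 (edgeR adjusted p = 0.0266 and 0.0361). The Asb14 call was lost without exercised 7.3 or sedentary 4.3, 6.2 or 7.4. The Asb12 call was lost in 14 of the 21 fits and held without exercised 5.4, 8.3, 8.4, 9.1 or Quad_10.3_Exercise_18m or sedentary 6.2 or 9.3. The protein phosphatases Dusp14 and Dusp13 fell by 0.38 and 0.29 (edgeR adjusted p = 0.0193 and 0.0274), and the Dusp13 call was lost without sedentary 4.3, 6.2, 7.4 or 9.2. Ramp1, a partner of the receptor for calcitonin gene-related peptide, fell by 0.30, and Cbfb, a partner of Runx factors, by 0.29 (edgeR adjusted p = 0.0296 and 0.0262). The Ramp1 call was lost without exercised 4.1, 5.1 or 7.3 or sedentary 5.2, 6.4, 7.4, 8.2 or 9.2, and the Cbfb call without sedentary 6.2, 7.4, 8.2 or 9.2. Gbp10 had the largest of the 15 falls named for size, 0.72 on the log2 scale (edgeR adjusted p = 0.00685), but shares 84.1% of its 50-base words with other genes, chiefly Gbp6, so the value is uncertain. Fam57b, Epb41l4b, Fibin and C2cd2 completed these 15, at 0.55, 0.39, 0.30 and 0.29 below sedentary on the log2 scale (edgeR adjusted p from 0.0324 to 0.0494). The Epb41l4b call was lost without exercised 4.1, 5.1, 5.3 or 7.3 or sedentary 4.3, 5.2, 6.2, 7.4, 8.2 or 9.2. Of the 21 fits, the Fam57b call held in 7, those without exercised 5.1, 5.4, 8.3, 8.4, 9.1 or Quad_10.3_Exercise_18m or sedentary 7.4. The C2cd2 call held in 8, those without exercised 5.4, 7.1, 8.3, 8.4, 9.1 or Quad_10.3_Exercise_18m or sedentary 5.2 or 6.1. The Fibin call held in 5, those without exercised 5.4, 8.4, 9.1 or Quad_10.3_Exercise_18m or sedentary 6.2. In this paragraph the adjusted p of a lost call was at most 0.111.

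Genes linked to muscle loss had mostly negative fold changes that did not pass the test. None of 18 genes of the atrophy and glucocorticoid response was called, where 0.846% of all genes tested were, and 15 of them had negative fold changes (median -0.10). Trim63, a ubiquitin ligase of muscle wasting, had 105.7 to 209.3 CPM in exercised and 141.6 to 258.2 CPM in sedentary libraries (log2 fold change -0.35, edgeR adjusted p = 0.135). Mstn, the growth inhibitor myostatin, averaged 45.4 ± 13.7 CPM in exercised and 50.01 ± 8.58 CPM in sedentary libraries (log2 fold change -0.14, edgeR adjusted p = 0.74).

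Other named rises had mixed roles. Rab15, a small GTPase of endocytic recycling, ran from 2.07 through 2.597 to 3.39 CPM in exercised libraries, against 1.33, 1.604 and 1.88 CPM in sedentary libraries, without overlap (log2 fold change 0.76, SE 0.10, edgeR adjusted p = 0.000307). Myl12a, a regulatory light chain of non-muscle myosin chosen after its value was seen, ran from 217.6 to 297.5 CPM in exercised and from 164.6 to 208.7 CPM in sedentary libraries (log2 fold change 0.42, edgeR adjusted p = 0.000503). Cilp, a matrix protein, Trp53i11, Ttc9 and the smoothelin-like protein Smtnl1 rose by 0.87, 0.86, 0.82 and 0.77 on the log2 scale (edgeR adjusted p = 0.0342, 0.0347, 0.0112 and 0.00469). The Cilp call held in 9 of the 21 fits that left out 1 library, those without exercised 4.1, 5.4, 6.3, 7.1, 8.3, 9.1 or Quad_10.3_Exercise_18m or sedentary 5.2 or 6.1 (adjusted p up to 0.0813). The Trp53i11 call was lost in 12, those without exercised 4.1, 5.1, 5.3, 6.3 or 7.3 or sedentary 4.3, 6.1, 6.2, 7.4, 8.2, 9.2 or 9.3 (adjusted p up to 0.0783). H19, an imprinted non-coding RNA, Nes, the intermediate filament nestin, Mustn1 and the transcription factor Sox4 rose by 0.57, 0.44, 0.67 and 0.64 (edgeR adjusted p = 0.000514, 0.00700, 0.0102 and 0.0193) and were chosen after their values were seen.

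The called members of the vascular and nerve lists were Cspg4 and Uchl1. Cspg4, a proteoglycan of pericytes, was the only call among 9 tested smooth muscle and pericyte markers (11.1%, against 0.846% of all genes tested). It averaged 13.1 ± 1.48 CPM in exercised and 10.07 ± 1.74 CPM in sedentary libraries (log2 fold change 0.38, edgeR adjusted p = 0.0361). Its call held in 10 of the 21 fits that left out 1 library, those without exercised 4.1, 5.4, 8.4, 9.1 or Quad_10.3_Exercise_18m or sedentary 5.2, 6.4, 7.4, 8.2 or 9.3 (adjusted p up to 0.0909). All 10 endothelial markers had positive fold changes (median 0.23) and none was called; their sum was 416.9 ± 71.9 CPM in exercised and 360.6 ± 28.6 CPM in sedentary libraries (exact permutation p = 0.0355, adjusted over 19 measures p = 0.337). Dll4, a Notch ligand of sprouting vessels, had a log2 fold change of 0.54 (edgeR adjusted p = 0.0527), and Vegfa, the main vessel growth factor, one of -0.16 (edgeR adjusted p = 0.68). Of 7 tested neuron markers 1 rose (14.3%), the deubiquitinase Uchl1. It averaged 5.28 ± 1.29 CPM in exercised and 3.21 ± 0.435 CPM in sedentary libraries (log2 fold change 0.72, edgeR adjusted p = 0.00687). The summed neuron markers were the only 1 of the 19 library measures to pass the test, at 9.31 to 18.0 CPM in exercised and 7.49 to 11.4 CPM in sedentary libraries (exact permutation p = 0.000748, adjusted p = 0.0142). Their means of 12.2 CPM in exercised and 8.76 CPM in sedentary libraries include Uchl1. Much of the difference is thus the Uchl1 call again, and the sum without Uchl1 was not tested. Summed Schwann cell and nerve markers averaged 97.3 ± 26.6 CPM in exercised and 93.3 ± 8.79 CPM in sedentary libraries (exact permutation p = 0.878, adjusted p = 0.955). The part that cell makeup or mitochondrial share had in the gene results was not tested.

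The exercised libraries did not move to the same extent. Over the 98 called rises, libraries 5.4 and 9.1 lay above the sedentary median for 69 and 83 genes, and above all sedentary libraries for 23 and 48. The other 10 exercised libraries were above the sedentary median for 93 to 98 genes and above all sedentary libraries for 72 to 93. The Myh4 share ordered these libraries in a like way, with 89.0% in 5.4 and 84.8% in 9.1 and 67.7% to 81.7% in the others. Because these genes were called on the same libraries, the counts describe the calls and are no separate test. The labels give no reason for the difference. The number of calls depended on those libraries: it was 336 without 5.4 and 301 without 9.1. Leaving out sedentary 6.2, 4.3 or 9.2 or exercised 7.3 lowered it to 75, 77, 81 and 81.

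**Figure D5:**
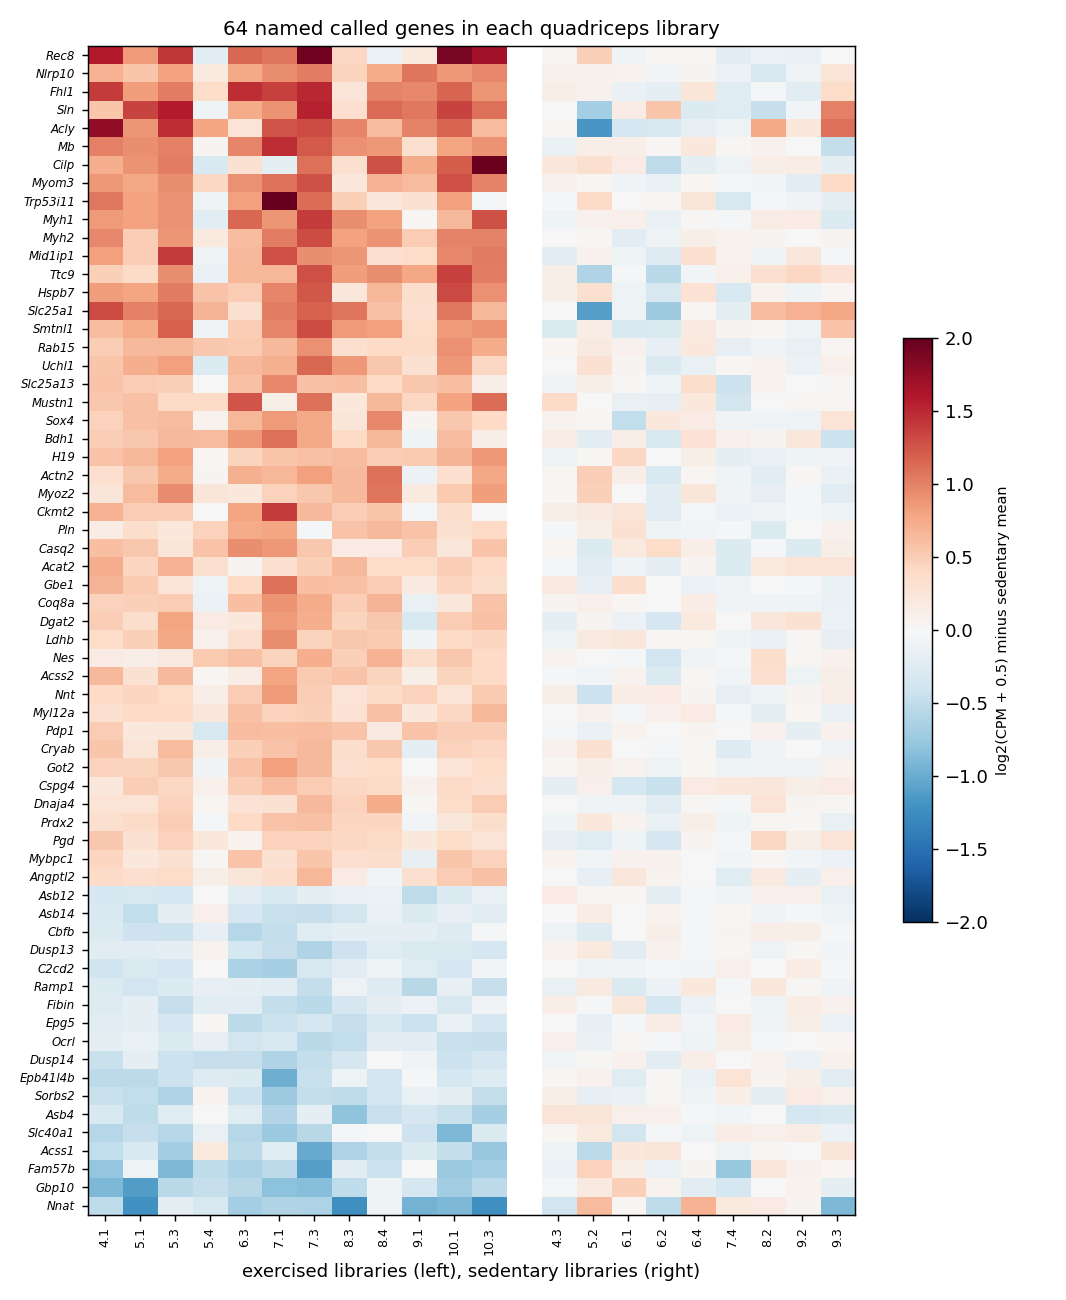
Rows are the called genes named by the rule or singled out afterwards, ordered by fold change, and columns are libraries, exercised in the left block and sedentary in the right. Colour gives log2(CPM + 0.5) minus the mean of the sedentary libraries, from blue (lower) to red (higher). Columns 5.4 and 9.1 are the palest of the exercised block.

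Gastrocnemius, the main calf muscle, was measured in 13 exercised and 10 sedentary libraries of the same age. Titles of both muscles carry the same numbers, so some libraries may come from the same mice, and the muscles may not be independent. Gastrocnemius gave 132 rises and 52 falls among 14808 genes (0.891% and 0.351%, 1.24% in all; edgeR adjusted p under 0.05). Of the 98 quadriceps rises 95 were tested in gastrocnemius, 94 had a positive fold change there and 24 were called, and of the 25 falls 23 had a negative one and 5 were called. Their median log2 fold changes were 0.57 in quadriceps and 0.38 in gastrocnemius for the rises, and -0.38 and -0.24 for the falls. The genes were chosen by their call in quadriceps, which raises the quadriceps medians, so the medians of the muscles are not comparable.

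No gene passed the test of the difference between the muscles in edgeR, either without (452 genes at unadjusted p under 0.05) or with the shared number as a block (941 genes). Myh1 had log2 fold changes of 0.85 (SE 0.15) in quadriceps and 1.06 (SE 0.17) in gastrocnemius, and Mb of 0.90 (SE 0.13) and 0.84 (SE 0.14). Fhl1 had 1.05 (SE 0.13) in quadriceps and 0.67 (SE 0.16) in gastrocnemius, and Acly 0.94 (SE 0.21) and 1.37 (SE 0.30). Rab15 had 0.76 (SE 0.10) in quadriceps and 0.11 (SE 0.11) in gastrocnemius, a difference of 0.65 that did not pass without the block (edgeR adjusted p = 0.9996). With the block, the smallest adjusted p of a difference was 0.104 among the 98 quadriceps rises and 0.626 among the 25 falls (edgeR). The lack of a call does not show that the muscles responded alike. Myh4, not called in either muscle, had -0.21 (SE 0.11) in quadriceps and -0.33 (SE 0.09) in gastrocnemius.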

How the data were processed

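Libraries were made with a TruSeq RNA kit that does not mark strand. The submitters' processing notes name STAR 2.5.2b as aligner and GRCm38.p5 as build. Neither the read counter nor its strand setting is given in the sources used here. The authors deposited raw counts for each Entrez gene and TPM values.

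Counts of the 12 exercised and 9 sedentary quadriceps libraries were tested alone with edgeR 4.0.16 (R 4.3.3): TMM factors, filterByExpr (minimum count 10, total 15), quasi-likelihood F test, Benjamini-Hochberg over all genes. Standard errors came from F. All tests were two-sided. Library measures and myosin shares used exact permutation over all 293930 regroupings. The 2 labelled quadriceps samples 10.4 and 10.2 were not analysed here.

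Named genes were the 15 largest rises and falls with mean log2 CPM of at least 1 (predicted genes, pseudogenes and small RNAs left out), from each list its 4 best called members (or the 2 of smallest p), and fixed genes. The 32 gene lists, 15 marker lists and the comparison itself were chosen with earlier results of these data known. List symbols all matched (725). Positions came from GENCODE M21 and promoters from RefSeq. On simulated data with 14439 genes the test recovered 92% of changes of 0.5 and 100% of changes of 1 on the log2 scale, with 5 false calls. The changed genes were drawn from those with a mean log2 CPM over 1, and counts were drawn independently for each gene and library. Alternatives were DESeq2 1.42.0, limma 3.58.1, RLE factors, other filters, blocks and left-out libraries.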

Additional observations from a re-analysis of the deposited data

Results flagged for a closer look

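Among 122 measures examined for 1 sedentary library far from the other 8 (Dixon's test, 95% level, by which chance alone marks about 1 in 20), 17 were marked. The exercised group was not examined in this way.

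Sedentary library 5.2 stood apart in 9 measures. Its mitochondrial mRNA share was 19.2% (the others 10.8% to 13.8%), and CYTB (mt-Cytb) had 32380 CPM (17370 to 22670). Its 10 most abundant genes took 33.5% of counts (26.5% to 28.7%), and summed myofibre markers were 175512 CPM (133127 to 153773). Summed smooth muscle and pericyte markers were 6298 CPM (3274 to 4784), and summed neutrophil and marrow markers 18.9 CPM (2.1 to 8.86). The smooth muscle and pericyte list shares the muscle fibre gene Des with the myofibre list, so those sums are not separate measures. Actn2 had 1243 CPM (718 to 967), Rec8 0.526 CPM (0.128 to 0.261) and Acss1 22.4 CPM (30.3 to 38.3).

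Sedentary library 6.1 had 1024 CPM of summed red cell markers (54.7 to 199 in the others) and 365 CPM of H19 (242 to 297). Library 9.3 had 78.5 CPM of Myom3 (50.9 to 63.4) and 84.6 CPM of Smtnl1 (46.0 to 64.4). Library 8.2 had 6.8 CPM of Atf3 (2.06 to 4.44) and 110 CPM of Dnaja4 (78.2 to 94.1). Library 9.2 had 8.44 CPM of Nr4a3 (1.07 to 4.15), and library 6.2 had 3.52 CPM of Msmo1 (4.24 to 4.83). The causes were not tested.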

How the results depend on the processing

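The count of 123 called genes (98 higher, 25 lower) was 309 (196 and 113) with DESeq2, 489 (306 and 183) with limma, 81 (63 and 18) with the gene length slope as covariate and 294 (197 and 97) at adjusted p under 0.1. It was 125 with RLE factors, 115 without a filter, 112 with a stricter filter and 112 with all 3 quadriceps groups fitted. Leaving out 1 library gave 75 to 336 calls, 60 to 223 higher and 9 to 122 lower. Counts of falls below 17 came without exercised 4.1, 5.3 or 7.3 or sedentary 4.3, 6.2, 6.4, 7.4 or 9.2. All 123 genes kept their sign with DESeq2, RLE factors and limma; the causes of the differing counts were not tested. Gastrocnemius gave 184 calls with edgeR and 653 with DESeq2, an alternative added after the data were seen. So was leaving out the library of each group farthest from the mean of all 21 libraries (121 calls, 94 of them shared).

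With the first part of the title number as a replicate block, 94 genes were called (54 higher and 40 lower), 53 of them shared with the 123. In that fit, exercised libraries whose first part had no sedentary library add nothing to the contrast. The main fit did not take the first part to pair exercised with sedentary samples. Of 6 first parts, 4 had a correlation over 0.1 between such samples (lowest -0.199, median 0.153, highest 0.313). So few pairs, without a reference for unrelated samples, cannot exclude a shared block. Between the muscles 19 of 21 numbers had a correlation over 0.1, and 16 quadriceps libraries correlated best with the gastrocnemius library of their own number. The test of the muscles without the block leaves this match out.

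Of 64 named called genes, 39 kept their call whichever library was left out, and 20 did so under every alternative, among them Fhl1, Mb, Myom3, Myh1, Myh2, Hspb7, Mid1ip1, Rab15 and Ocrl. The other 25 lost it in 1 to 16 of the 21 fits, Fibin in 16, Ckmt2, Pgd and Nnat in 15, and Acss1, Fam57b and Asb12 in 14. Of the 64, 29 lost their call with the first part of the number as block. With all 3 quadriceps groups fitted 19 did, and with the gene length slope as covariate 13. Some calls held in all 21 fits but were lost under another alternative. They were Sln, Sorbs2, Dusp14, Epg5, Myoz2, Casq2, Cryab, Gbe1, Uchl1 and Ldhb. The calls of Coq8a, Got2, Bdh1, Pdp1, Acss2, Mustn1, Sox4, Prdx2 and Dnaja4 were so too. Col1a1, not called, turned from -0.22 to 0.0275 on the log2 scale with limma. In simulation a change of 0.5 on the log2 scale was mostly found, and smaller ones were not simulated. The simulated counts left out differences shared by many genes of a library, so the recovery in the real data may be lower. In quadriceps, larger fold changes went uncalled, such as 0.88 for Actc1 and 0.76 for Csrp3 (edgeR adjusted p = 0.248 and 0.0844). A gene without a call may therefore still have changed by 0.5 or more.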

Other observations

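Lists for other processes held no called gene in quadriceps. Since only 0.846% of all 14543 genes tested were called, lists of 7 to 25 genes would mostly hold none. The empty lists therefore do not show that these processes were unchanged. These were antioxidant enzymes (18 tested, median log2 fold change -0.01), immediate early genes (22, -0.03), myokines (18, 0.05), autophagy and lysosome (17, -0.03), neuromuscular junction (19, 0.05), satellite cells and regeneration (13, 0.07), circadian clock (18, 0.02), chaperones (18, 0.05), ER stress (18, -0.10), p53 targets and senescence (14, -0.02), collagens and matrix (20, 0.01), matrix proteases (16, -0.01), angiogenic signalling (19, 0.09), interferon response (25, 0.11), MHC class I (12, 0.04) and class II (7, 0.09), complement (15, -0.04), growth and Tgf-beta signalling (19, -0.02) and cell cycle genes (10, 0.12). With RLE factors 1 angiogenic gene was called. Among single genes, Atf3, a stress-response transcription factor, averaged 6.71 ± 2.78 CPM in exercised and 4.03 ± 1.25 CPM in sedentary libraries (edgeR adjusted p = 0.107). Chrna1, the muscle acetylcholine receptor alpha subunit, averaged 17.0 ± 3.08 CPM in exercised and 14.3 ± 1.397 CPM in sedentary libraries (edgeR adjusted p = 0.16). Col1a1, the main fibrillar collagen chain, averaged 71.0 ± 15.1 CPM in exercised and 82.5 ± 43.2 CPM in sedentary libraries (edgeR adjusted p = 0.70).

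Further called genes were singled out after their values were seen. Prdx2, a peroxide-removing enzyme, and Dnaja4, a co-chaperone, rose by 0.35 and 0.37 on the log2 scale (edgeR adjusted p = 0.0184 for both). Angptl2, a secreted angiopoietin-like protein, rose by 0.34 (edgeR adjusted p = 0.0303), a call lost without exercised 5.3 or 7.3 or sedentary 4.3, 5.2, 6.2, 6.4, 7.4 or 9.2 (adjusted p up to 0.0735). Rec8, the meiotic form of a cohesin subunit, had 0.132 to 2.31 CPM in exercised and 0.128 to 0.526 CPM in sedentary libraries, with 8 of 12 exercised libraries above all sedentary ones (log2 fold change 2.28, SE 0.43, edgeR adjusted p = 0.00863). Nlrp10, a member of the NLR family, averaged 1.48 ± 0.328 CPM in exercised and 0.665 ± 0.129 CPM in sedentary libraries (log2 fold change 1.15, edgeR adjusted p = 0.000159). Nnat, an imprinted gene, averaged 1.304 ± 0.494 CPM in exercised and 2.51 ± 1.04 CPM in sedentary libraries (log2 fold change -0.93, edgeR adjusted p = 0.0471). Its call held in 6 of the 21 fits that left out 1 library, those without exercised 5.3, 5.4, 8.4 or 9.1 or sedentary 6.2 or 9.3 (adjusted p up to 0.0967).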
